A study of Mus musculus with 20 samples.

Results

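The genes described here copy DNA in S phase or decide when that copying may begin: cyclin E and E2F genes, origin licensing factors, the replicative helicase, polymerases and primase, the sliding clamp with its loader, and a few chromatin and checkpoint genes that act at replication forks. They were taken as a list of 37 gene symbols, and each gene was represented by its probe set with the highest mean signal among probe sets annotated to that symbol alone. On this array 36 of the 37 were measured, out of 17097 genes in all; Chaf1a, the large subunit of the chromatin assembly factor, was not analysed here. All 36 passed the filter on dim genes and were tested among 12944 genes.

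The cells were mouse embryonic fibroblasts immortalized with SV40 and carrying a double knockout of Ampkα1 and Ampkα2, the catalytic subunits of the energy-sensing kinase AMPK. AICAR is a cell-permeable nucleoside that is phosphorylated inside cells to an AMP mimic and is widely used to activate AMPK, so the comparison asks which transcripts change with AICAR where that kinase is missing. Untreated control cells (0 h) gave 3 arrays. Cells held in 1 mM AICAR for 1, 2, 4, 8, 12 or 24 h gave 3 arrays at each time but 8 h, which had 2. Every array, controls included, came from double-knockout cells, and no wild-type cells were analysed here. No untreated cells from later times were analysed here, and the effect of AICAR cannot be told apart from that of time in culture. The labels do not say whether the arrays of a group came from separate cultures, and the p-values then measure only the spread between these arrays. RNA came from whole cultures, so fewer cells in S phase and less transcript per cell cannot be told apart either.

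DNA replication is prepared in G1, when the origin recognition complex, Cdc6 and Cdt1 load the MCM2-7 ring onto origins. Cyclin E with its kinase and the E2F transcription factors then drive entry into S phase, when Cdc45 and the GINS complex join the MCM ring to form the active helicase, and primase, polymerases, the clamp PCNA and its loader RFC build the new strands. Many of these genes are E2F targets, and SV40 large T antigen, the usual immortalizing agent of that virus, binds the retinoblastoma family proteins that restrain E2F.

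Signals are on the log2 scale as deposited, and differences are differences of log2 group means. Array medians ran from 5.16 to 5.32 and correlations between arrays from 0.979 to 0.998. The 95th percentile of 23 nonspecific control probe sets was 5.08, and the highest group mean of each of the 36 genes lay above it. The 3' minus 5' difference of the actin control probe sets, a measure of RNA integrity and labelling, was 0.503 to 0.557 on the 24 h arrays and 0.383 to 0.458 on the control arrays; with this difference as a covariate, added after seeing the data, 17 genes passed the test at 24 h, and the calls of Ccne1 at 4 h (adjusted p = 0.0678) and of Ccne1, Cdc6 and Rfc4 at 8 h (adjusted p = 0.0618, 0.094 and 0.135) were lost. Of 10 fibroblast markers, 8 passed the filter, and Col1a2 and Lum did not. Of these 8, 0 were higher and 3 lower at 24 h, against 25.8% of all genes higher and 14.6% lower. The 3 were Fn1, Thy1 and Pdgfrb. Thy1, at 4.72 against 4.94 in controls, lay below the 95th percentile of the nonspecific control probe sets, and the Pdgfrb arrays overlapped the control arrays. Among markers of other cell types, 1 of 3 macrophage markers tested was higher at 24 h (Cd68, 5.85 against 4.77 in controls, where it lay below both the filter and the 95th percentile of the nonspecific control probe sets), and 1 of 3 epithelial (Krt19) and 1 of 3 endothelial (Kdr) markers were lower. The part of these changes, or of the actin difference, in the results below was not tested. Prkaa1 and Prkaa2, the deleted genes, had probe set signals of 7.92 to 8.36 and 5.42 to 6.98, and neither differed over the times (limma F test, adjusted p = 0.0512 and 0.143). Whether these probes lie within the deleted parts is unknown here, so they check nothing about the genotype.

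Changes in replication genes were absent from the early calls and built up with time, in both directions. A gene was called where limma gave a Benjamini-Hochberg adjusted p under 0.05 over all 12944 genes. At 1 h and at 2 h 0 of the 36 were called, although 2 and 4 of them had an unadjusted p under 0.05; 0.479% and 1.47% of all genes were called at these times. At 4 h there were 4 (11.1%, 3 higher and 1 lower), against 12.1% of all genes, 5.18% higher and 6.9% lower. At 8 h there were 5 (13.9%, 3 higher and 2 lower), against 10.3% of all genes, 7.49% higher and 2.84% lower. At 12 h there were 12 (33.3%, 6 higher and 6 lower), against 23.7% of all genes, 14.8% higher and 8.88% lower. At 24 h there were 15 (41.7%, 9 higher and 6 lower), against 40.4% of all genes, 25.8% higher and 14.6% lower. The 8 h count rested on single arrays: it was 0 without AICAR 8 h replicate 1, 1 without control replicate 2, and 2 without control replicate 1, control replicate 3 or AICAR 8 h replicate 2. The 12 h count was 7 without control replicate 2, AICAR 12 h replicate 1 or AICAR 12 h replicate 2.

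The share of replication genes called lay near that of all genes at 4, 8 and 24 h and is no result about the list as such; the difference at 12 h was not tested. Sizes were modest: 0 of the 36 changed by 2-fold or more with a call at 24 h, against 3.86% of all genes. The median difference at 24 h was 0.08 for the replication genes, against 0.01 for all genes, and the median absolute difference was 0.175, against 0.184. At 24 h the 3 arrays did not overlap the 3 control arrays for 24 of the 36 genes, against 50% of all genes. Over the 7 times together, 16 of the 36 (44.4%) passed the limma F test, against 48.4% of all genes. In all, 18 genes were called at 1 or more of the 6 times and 18 at none. The matching share of all genes was not counted, so these numbers are no result about the list.

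**Figure D1:**
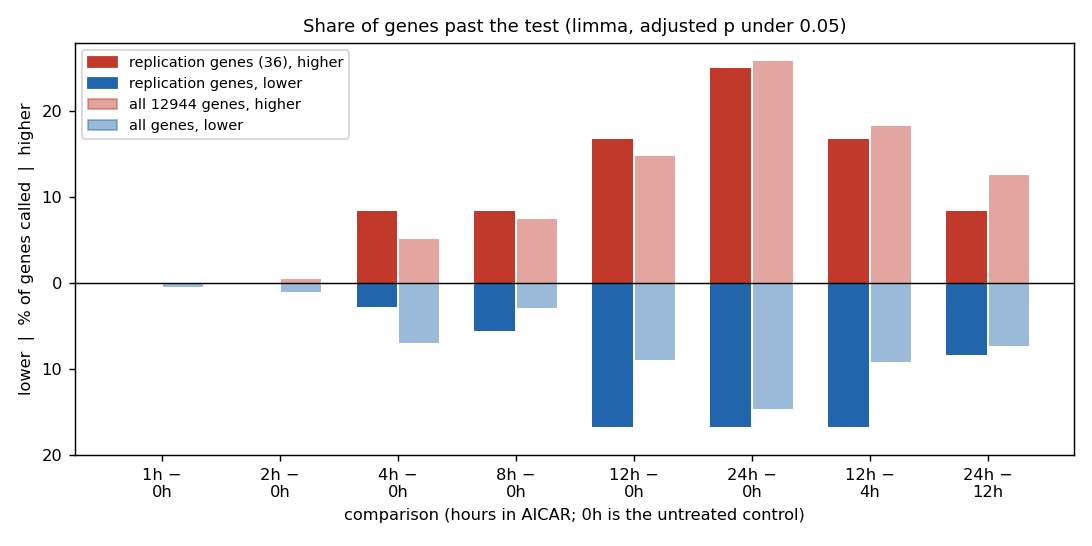
Share of the 36 replication genes (dark bars) and of all 12944 genes tested (pale bars) called by limma at an adjusted p under 0.05, as a percentage, for each comparison; bars above 0 count genes that were higher and bars below 0 genes that were lower in the first-named time. The replication genes reach 41.7% in both directions together at 24 h against the control, beside 40.4% of all genes.

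The promoters of a few genes are shown first because E2F sites are the best known shared element of this gene group. RefSeq promoter windows of GRCm38.p6, limited here to the 250 bases upstream of each start, were available for 30 of the 37 genes, with 36 windows. The E2F-type motif TTTNGCGC, searched on both strands, occurred in 6 of the 36 windows (16.7%), against 1.13% of 32851 windows of all genes, and TTTCCCGC in 2 (5.56%), against 0.895%. The CCAAT motif, bound by NF-Y, occurred in 63.9% of the windows, against 33.8%, and TTTGAA, the CHR element of many mitotic genes, in 11.1%, against 16%. The motifs do not contain one another, but TTTNGCGC on opposite strands can overlap itself, as it does in Mcm5 and Mcm6. A match is a description of the letters and says nothing of whether a factor binds there.

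Cdc6 and Mcm7, both lower after 24 h in AICAR, were the 2 genes with TTTCCCGC. The sequences below run 5′ to 3′ toward the gene, and capitals mark matches to TTTCCCGC or TTTNGCGC on either strand.
Cdc6, chr11:98907901-98908150 (+ strand, GRCm38.p6): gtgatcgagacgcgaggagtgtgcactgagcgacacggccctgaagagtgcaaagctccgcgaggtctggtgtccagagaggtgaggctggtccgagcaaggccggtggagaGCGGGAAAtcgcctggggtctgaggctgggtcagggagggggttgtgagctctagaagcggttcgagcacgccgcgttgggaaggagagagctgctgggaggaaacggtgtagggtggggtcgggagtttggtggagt
Mcm7, chr5:138171884-138172133 (- strand, GRCm38.p6, the first of 2 windows): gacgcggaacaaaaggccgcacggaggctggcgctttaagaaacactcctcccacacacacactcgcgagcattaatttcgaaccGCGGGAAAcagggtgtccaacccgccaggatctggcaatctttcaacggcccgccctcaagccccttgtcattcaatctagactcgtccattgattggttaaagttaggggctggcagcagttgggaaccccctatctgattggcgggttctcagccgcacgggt

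Mcm5 and Mcm6, which encode partners of Mcm7 in the same ring and were called at none of the 6 times, carried TTTNGCGC.
Mcm5, chr8:75109259-75109508 (+ strand, GRCm38.p6): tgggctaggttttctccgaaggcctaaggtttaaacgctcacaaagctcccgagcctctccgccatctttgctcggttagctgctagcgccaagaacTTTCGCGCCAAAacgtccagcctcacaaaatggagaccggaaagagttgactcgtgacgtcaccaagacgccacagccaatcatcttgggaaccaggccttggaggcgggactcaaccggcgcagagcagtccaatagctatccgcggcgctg
Mcm6, chr1:128359706-128359955 (- strand, GRCm38.p6): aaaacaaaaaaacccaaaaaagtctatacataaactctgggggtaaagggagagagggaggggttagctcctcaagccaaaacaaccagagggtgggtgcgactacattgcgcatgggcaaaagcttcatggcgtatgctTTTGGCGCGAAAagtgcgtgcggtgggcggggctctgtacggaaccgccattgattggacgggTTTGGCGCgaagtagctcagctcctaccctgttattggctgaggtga

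Ccne1 and Rfc4, the genes with the largest fall at 24 h and the largest F statistic of the list, had no match to either motif in this window, which says only that these letters are not there.
Ccne1, chr7:38107491-38107740 (- strand, GRCm38.p6): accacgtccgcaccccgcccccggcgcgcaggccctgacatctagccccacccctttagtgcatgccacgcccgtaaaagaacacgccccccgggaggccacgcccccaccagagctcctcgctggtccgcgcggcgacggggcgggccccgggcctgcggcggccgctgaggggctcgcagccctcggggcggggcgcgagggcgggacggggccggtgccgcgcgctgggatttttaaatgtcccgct
Rfc4, chr16:23127731-23127980 (- strand, GRCm38.p6): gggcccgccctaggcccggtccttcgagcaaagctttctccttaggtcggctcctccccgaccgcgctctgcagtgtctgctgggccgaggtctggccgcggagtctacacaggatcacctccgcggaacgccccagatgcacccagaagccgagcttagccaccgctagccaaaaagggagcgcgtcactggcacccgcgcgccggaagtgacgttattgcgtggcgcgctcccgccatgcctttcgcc

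The 4 matching genes outside those printed were Uhrf1, Pola1, Rfc3 and Orc1. Of the 8 genes with an E2F-type match, 4 passed the F test over the times, and of the 21 tested genes with a window and no match, 10 did. Both shares lay near the 48.4% of all genes that passed it.

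Among the genes of S-phase entry, Ccne1 fell and Ccne2 was not called. Ccne1 encodes cyclin E1, which activates Cdk2 at the G1/S boundary. Its signal was 8.33, 8.42 and 8.16 on the control arrays, 8.19, 8.04 and 8.12 at 1 h, 8.09, 8.15 and 8.01 at 2 h, 7.83, 7.97 and 7.95 at 4 h, 7.94 and 7.85 at 8 h, 7.81, 8.04 and 7.70 at 12 h, and 7.51, 7.60 and 7.20 at 24 h. The 3 arrays at 24 h were the lowest of the 20, and the arrays from 4 h on all lay below the control arrays. At 24 h the difference from the control was -0.86 ± 0.10 (limma SE; adjusted p = 2.35e-06), a 1.82-fold lower signal and the largest fall in the list. The falls at 4 h (-0.39, adjusted p = 0.0191), 8 h (-0.41, adjusted p = 0.0298) and 12 h (-0.45, adjusted p = 0.00349) also passed. The 4 h call was lost without control replicate 1, control replicate 2 or AICAR 4 h replicate 1 (-0.37 to -0.33, adjusted p 0.0708 to 0.102), and the 8 h call without control replicate 1, control replicate 2 or either 8 h array (-0.46 to -0.35, adjusted p 0.0741 to 0.178). From 12 h to 24 h the signal dropped by a further 0.41 (adjusted p = 0.00822), a call lost without AICAR 12 h replicate 2 (-0.32, adjusted p = 0.0545).

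Ccne2, which encodes the second cyclin E, had signals of 9.58, 9.49 and 9.55 on the control arrays, 9.32, 9.36 and 9.19 at 1 h, 9.34, 9.36 and 9.27 at 2 h, 9.05, 9.50 and 9.51 at 4 h, 9.86 and 9.58 at 8 h, 9.76, 9.69 and 9.60 at 12 h, and 9.74, 9.93 and 9.70 at 24 h. The arrays at 1 and 2 h lay below the control arrays and those at 12 and 24 h above them. It was called at none of the 6 times, with a difference of 0.25 at 24 h (95% interval 0.02 to 0.48, adjusted p = 0.0771), but it passed the F test over all times (adjusted p = 0.00201). The 12 h arrays were higher than the 4 h arrays by 0.33 (adjusted p = 0.0287). That call was lost without AICAR 4 h replicate 1, AICAR 12 h replicate 1 or AICAR 12 h replicate 2, and the difference was 0.18 without the first of these (adjusted p = 0.167). The change of Ccne1 minus that of Ccne2 at 24 h was -1.11, and the two-sided exact permutation test over 3 against 3 arrays gave p = 0.1, the smallest this design allows.

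E2f1 and E2f2 encode activator E2Fs that switch on S-phase genes. E2f2 fell, with 6.37, 6.54 and 6.42 at 24 h against 6.72, 6.90 and 6.71 in controls, a difference of -0.33 ± 0.11 (limma, adjusted p = 0.0159). This call was lost without control replicate 2 (-0.27, adjusted p = 0.0822) or AICAR 24 h replicate 1 (-0.30, adjusted p = 0.0635). E2f1 had 7.90, 8.05 and 7.85 at 24 h against 7.72, 7.83 and 7.63 in controls, without overlap, but its difference of 0.20 (95% interval 0.04 to 0.37) had an adjusted p of 0.0507 and was not called. The difference between E2f1 and E2f2 was not tested.

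**Figure D2:**
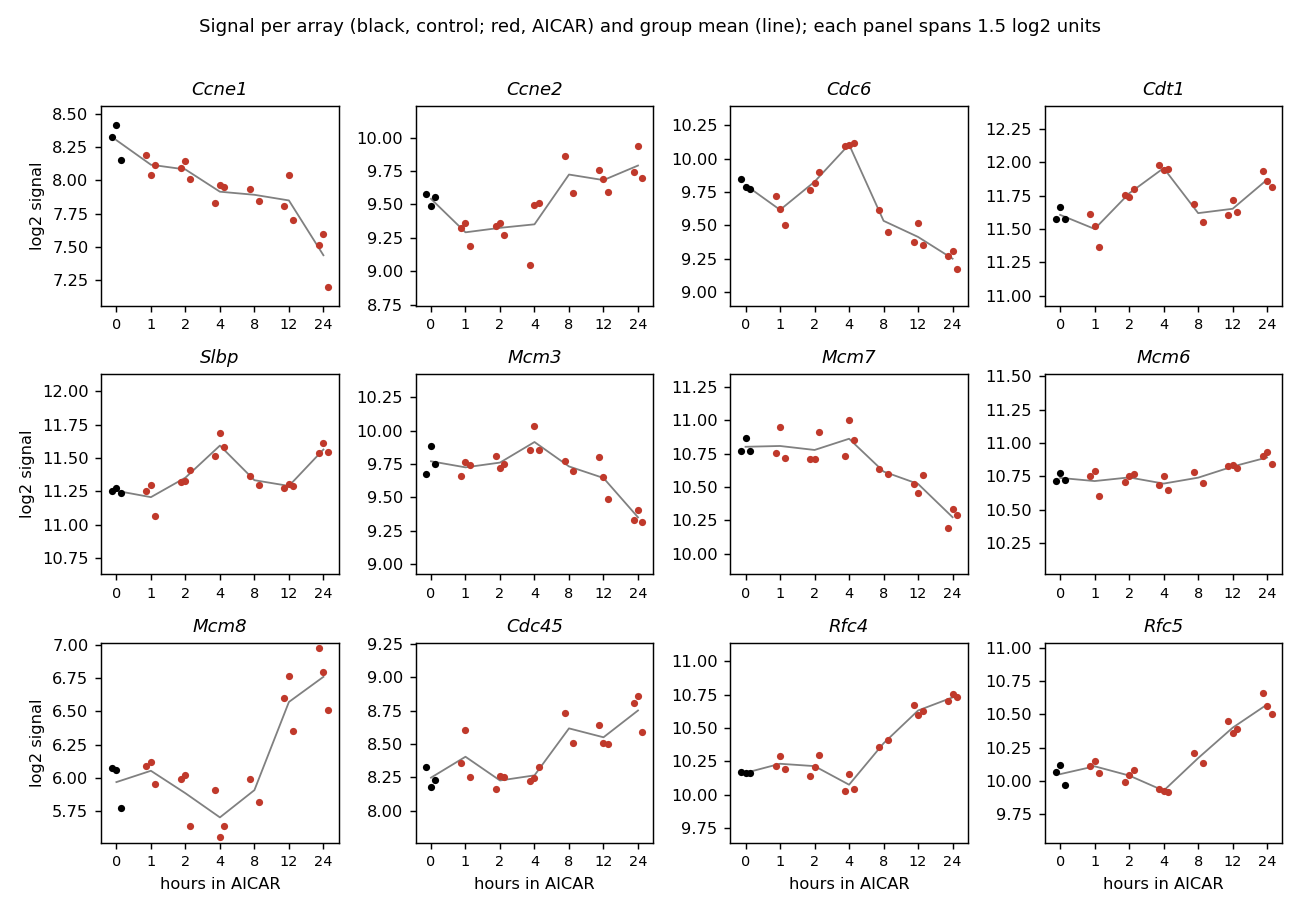
Log2 signal of 12 replication genes on each array (points; black for the control arrays, red for AICAR arrays) with the group mean (line), against hours in 1 mM AICAR on an evenly spaced axis; every panel spans the same number of log2 units. Cdc6 was at 10.10, 10.10 and 10.12 at 4 h and at 9.27, 9.30 and 9.17 at 24 h, on either side of the control arrays, while Mcm6 stayed between 10.60 and 10.93 throughout.

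Of the 4 licensing genes, 2 were higher and 1 lower at 24 h, when 25.8% of all genes were higher and 14.6% lower. Cdc6, the ATPase that helps load the MCM ring, was the only gene of the 36 called higher at 1 time and lower at another. Its signal was 9.84, 9.79 and 9.77 on the control arrays, 9.72, 9.63 and 9.50 at 1 h, 9.77, 9.81 and 9.90 at 2 h, 10.10, 10.10 and 10.12 at 4 h, 9.61 and 9.45 at 8 h, 9.37, 9.51 and 9.35 at 12 h, and 9.27, 9.30 and 9.17 at 24 h. The 4 h arrays were above every other array and the arrays from 8 h on were below all control arrays. It rose by 0.30 at 4 h (limma, adjusted p = 0.00881), and it fell by 0.39 at 12 h (adjusted p = 0.000651) and by 0.55 at 24 h (adjusted p = 5.7e-06). With each array centred on its median the 4 h difference was 0.26 and not called (adjusted p = 0.0673). The 8 h difference was -0.27 (adjusted p = 0.0389), and this call was lost when any 1 of the 3 control or 2 AICAR 8 h arrays was left out (-0.35 to -0.19, adjusted p 0.0718 to 0.316). Between 4 and 12 h alone the signal fell by 0.69 ± 0.07 (adjusted p = 2.31e-06), a difference of means without the control arrays.

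Cdt1, which brings the MCM ring to Cdc6 at the origin, rose at 4 h and again at 24 h. Its arrays read 11.58, 11.66 and 11.58 at 0 h, 11.98, 11.94 and 11.95 at 4 h, 11.61, 11.72 and 11.63 at 12 h, and 11.93, 11.86 and 11.82 at 24 h. The 4 h and 24 h arrays lay above all control arrays, and the 12 h arrays overlapped them. The rise was 0.35 at 4 h (adjusted p = 0.00231) and 0.26 at 24 h (adjusted p = 0.00427), with a fall of 0.30 between 4 and 12 h (adjusted p = 0.00248). The mean of all 3 Cdt1 probe sets, of which 1 lay below the filter, gave 0.13 at 24 h, which was not called (adjusted p = 0.0704). From 12 to 24 h it rose by 0.22 (adjusted p = 0.0303), a call lost without AICAR 12 h replicate 1 or 3 or AICAR 24 h replicate 1 or 2 (0.19 to 0.22, adjusted p 0.0736 to 0.12).

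Gmnn encodes geminin, the inhibitor that binds Cdt1 in S and G2 and prevents relicensing, and it rose and stayed up. Its signal was 10.74, 10.73 and 10.68 at 24 h against 10.43, 10.49 and 10.39 in controls, without overlap, and the difference was 0.28 ± 0.06 (adjusted p = 0.00126). At 8 h the difference was 0.32 (adjusted p = 0.00642) and at 12 h 0.21 (adjusted p = 0.0201). The 8 h call was lost without AICAR 8 h replicate 1 (0.28, adjusted p = 0.119), and the 12 h call without control replicate 1 or 3 or AICAR 12 h replicate 1 or 2 (0.18 to 0.21, adjusted p 0.0516 to 0.0972). Orc1, the largest subunit of the origin recognition complex, was at 7.84, 7.68 and 7.64 at 12 h against 8.08, 7.93 and 7.92 in controls. Its 12 h difference of -0.26 passed (adjusted p = 0.0372) and the 24 h difference did not (-0.05, adjusted p = 0.729). The 12 h call was lost when any control array or AICAR 12 h replicate 2 or 3 was left out (-0.29 to -0.21, adjusted p 0.0536 to 0.157). The 12 h minus 4 h difference of -0.27 (adjusted p = 0.025) was likewise lost without AICAR 4 h replicate 2 or 3 or AICAR 12 h replicate 2 or 3 (-0.27 to -0.22, adjusted p 0.058 to 0.124).

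Of the 6 subunits of the MCM2-7 ring, which work together as a hexamer, Mcm7 and Mcm3 fell, and Mcm2, Mcm4, Mcm5 and Mcm6 were called at none of the 6 times. At 24 h, 25.8% of all genes were called higher and 14.6% lower. The split within the ring was not tested against these shares. Mcm7 had 10.19, 10.34 and 10.29 at 24 h against 10.77, 10.87 and 10.77 in controls, and Mcm3 had 9.33, 9.41 and 9.32 against 9.68, 9.89 and 9.75. Neither pair of groups overlapped. The falls were 0.53 ± 0.08 for Mcm7 (limma, adjusted p = 5.39e-05, 1.44-fold) and 0.42 ± 0.08 for Mcm3 (adjusted p = 0.000338, 1.34-fold). The second probe set of each gene gave -0.50 and -0.26 at 24 h. Both calls at 24 h held in every alternative tried.

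Mcm7 was already lower at 12 h (-0.28, adjusted p = 0.0214), a call lost without control replicate 2 or AICAR 12 h replicate 1 or 2 (-0.28 to -0.24, adjusted p 0.06 to 0.0879). Its 12 h arrays were below its 4 h arrays by 0.34 (adjusted p = 0.00523), and its 24 h arrays below its 12 h arrays by 0.25 (adjusted p = 0.0441); the second of these calls was lost when any 1 of the 6 arrays was left out (-0.28 to -0.21, adjusted p 0.0521 to 0.163). Mcm3 fell by 0.27 from 4 h to 12 h (adjusted p = 0.0174) and by 0.29 from 12 h to 24 h (adjusted p = 0.0143). Its 12 h minus 4 h call was lost without AICAR 4 h replicate 2 (-0.21, adjusted p = 0.0914) or AICAR 12 h replicate 3 (-0.19, adjusted p = 0.0872), and its 24 h minus 12 h call without AICAR 12 h replicate 1 (-0.22, adjusted p = 0.0816).

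Of the other ring subunits, Mcm2, Mcm4 and Mcm5 stayed near their control signal at 24 h on the probe sets used, and Mcm6 lay slightly above it without a call. Mcm2 had 10.31, 10.31 and 10.28 at 24 h against 10.33, 10.42 and 10.23 in controls, a difference of -0.02 with a 95% interval of -0.19 to 0.15. Mcm4 differed by 0.06 (-0.09 to 0.21) and Mcm5 by -0.03 (-0.21 to 0.14). The second Mcm2 probe set gave -0.02 at 24 h. The second Mcm5 probe set, dimmer at 6.17 in controls, gave 0.29 and did not match the one used. Mcm6 had 10.90, 10.93 and 10.85 against 10.72, 10.78 and 10.72, without overlap, and its difference of 0.15 (0.03 to 0.28) was not called (adjusted p = 0.0532). These intervals leave out falls as large as the estimates for Mcm3 and Mcm7, but the difference between subunits was not itself tested.

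Of the helicase genes outside the ring, Mcm8 and Cdc45 rose. Mcm8 encodes a relative of the ring subunits that works with Mcm9 in recombination and repair and is not part of the ring. Its signal was 6.08, 6.06 and 5.78 in controls, 5.91, 5.56 and 5.64 at 4 h, 6.0 and 5.82 at 8 h, 6.60, 6.76 and 6.35 at 12 h, and 6.97, 6.80 and 6.51 at 24 h. The 12 h and 24 h arrays lay above all the others. The rise was 0.60 ± 0.14 at 12 h (limma, adjusted p = 0.00358) and 0.79 ± 0.14 at 24 h (adjusted p = 0.000133, 1.73-fold), the largest in the list, and 12 h exceeded 4 h by 0.87 (adjusted p = 0.000135).

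Cdc45, which joins the MCM ring to form the active helicase, had 8.80, 8.86 and 8.59 at 24 h against 8.33, 8.18 and 8.23 in controls. The groups did not overlap, and the rise was 0.50 ± 0.09 (adjusted p = 0.000222, 1.42-fold). Rises of 0.37 at 8 h (adjusted p = 0.029), 0.30 at 12 h (adjusted p = 0.0227) and 0.29 at 12 h over 4 h (adjusted p = 0.0274) were each lost without 1 of 3 arrays. For 8 h these were control replicates 2 and 3 and AICAR 8 h replicate 1 (0.26 to 0.36, adjusted p 0.0772 to 0.353). For 12 h they were control replicates 2 and 3 and AICAR 12 h replicate 1 (0.26 to 0.30, adjusted p 0.0643 to 0.108), and for 12 h over 4 h AICAR 4 h replicates 1 and 2 and AICAR 12 h replicate 1 (0.24 to 0.27, adjusted p 0.0726 to 0.124).

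Mcm10, which helps activate the assembled helicase, was at 8.68, 8.71 and 8.77 at 12 h against 8.95, 9.03 and 8.87 in controls, a difference of -0.23 (adjusted p = 0.0227). The call was lost with the mean of all Mcm10 probe sets (-0.10, adjusted p = 0.353) and without control replicate 1 or 2 or AICAR 12 h replicate 1 or 2 (-0.23 to -0.19, adjusted p 0.0595 to 0.111), and at 24 h the difference was -0.16 (adjusted p = 0.0744). The GINS genes were not called at any time. Gins1 differed by 0.15 at 24 h (95% interval -0.02 to 0.31) and Gins2 by -0.09 (-0.25 to 0.06).

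Among the polymerases and primase, 0 of the 5 genes were called at 24 h, against 40.4% of all genes. Their differences ran from -0.10 to 0.09. Pola1, the catalytic subunit of polymerase alpha, was at 9.64, 9.81 and 9.67 in controls, 9.95, 9.81 and 9.76 at 1 h, 9.94, 9.95 and 9.88 at 2 h, and 9.69, 9.64 and 9.50 at 24 h. It passed the F test over the times (limma, adjusted p = 0.0261) with no single time called. Prim1, the primase that starts each new strand, also passed the F test (adjusted p = 0.0296). Its arrays were at 10.52, 10.44 and 10.55 at 12 h against 10.19, 10.26 and 10.25 at 4 h, and this rise of 0.27 was called (adjusted p = 0.00671).

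Prim2, the second primase subunit, was at 9.97, 10.15 and 10.06 at 12 h against 9.80, 9.80 and 9.78 in controls. The difference of 0.27 passed (adjusted p = 0.019) and was lost without control replicate 3 (0.26, adjusted p = 0.0564) or AICAR 12 h replicate 2 (0.22, adjusted p = 0.0921), and with the mean of all Prim2 probe sets (0.18, adjusted p = 0.0647). At 24 h it was 0.09 (95% interval -0.08 to 0.25). Pold1 and Pole, the catalytic subunits of the lagging- and leading-strand polymerases, differed by -0.09 (-0.26 to 0.09) and 0.06 (-0.11 to 0.22) at 24 h.

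Of the clamp loader genes in the list, Rfc4 and Rfc5 rose in every alternative at 24 h and Rfc3 in some of them, and the clamp gene was not called; the difference between loader and clamp was not tested. Replication factor C opens the PCNA ring and places it on DNA, and Rfc3, Rfc4 and Rfc5 encode 3 of its small subunits. Rfc4 had 10.17, 10.16 and 10.16 in controls, 10.21, 10.29 and 10.19 at 1 h, 10.14, 10.20 and 10.30 at 2 h, 10.03, 10.15 and 10.04 at 4 h, 10.36 and 10.41 at 8 h, 10.67, 10.59 and 10.63 at 12 h, and 10.70, 10.75 and 10.73 at 24 h. The 4 h arrays were all below the control arrays and the arrays from 8 h on all above them. The rise was 0.47 ± 0.06 at 12 h (limma, adjusted p = 2.62e-05) and 0.57 ± 0.06 at 24 h (adjusted p = 5.89e-07, 1.48-fold), and its second probe set gave 0.56 at 24 h. The 8 h difference of 0.22 (adjusted p = 0.0411) was lost when any 1 of its 5 arrays was left out (0.20 to 0.25, adjusted p 0.0821 to 0.211).

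Rfc5 followed the same order, with 10.66, 10.56 and 10.50 at 24 h against 10.07, 10.12 and 9.97 in controls, and with 9.94, 9.93 and 9.91 at 4 h. The rise was 0.35 at 12 h (adjusted p = 0.000508) and 0.52 ± 0.06 at 24 h (adjusted p = 2.24e-06, 1.44-fold). Between 4 and 12 h Rfc4 rose by 0.56 (adjusted p = 3.29e-06) and Rfc5 by 0.47 (adjusted p = 2.29e-05). Rfc3 had 9.57, 9.72 and 9.55 at 24 h against 9.46, 9.09 and 9.44 in controls, a difference of 0.28 (adjusted p = 0.0427). It was lost without control replicate 2, the lowest control array (0.16, adjusted p = 0.266), without AICAR 24 h replicate 1 (0.30, adjusted p = 0.066), and without AICAR 24 h replicate 2 (0.23, adjusted p = 0.161).

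Pcna, the clamp, had 12.46, 12.49 and 12.43 at 24 h against 12.31, 12.30 and 12.29 in controls. These arrays did not overlap, but the difference of 0.16 (95% interval -0.01 to 0.33) was not called (adjusted p = 0.141). The other genes of this group were not called at any time. At 24 h, Rpa1 and Rpa2, subunits of the complex that coats single-stranded DNA, differed by 0.11 and 0.16. The flap nuclease gene Fen1 differed by 0.08, and Lig1, the ligase that joins Okazaki fragments, by 0.15 (adjusted p 0.0869 to 0.644 over these 4 genes).

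In the group of chromatin, histone mRNA and checkpoint genes, Slbp and Clspn rose and Uhrf1 fell. Slbp encodes the protein that binds the stem-loop of replication-dependent histone mRNAs. It was at 11.25, 11.28 and 11.23 in controls, 11.51, 11.69 and 11.58 at 4 h, 11.37 and 11.30 at 8 h, 11.28, 11.30 and 11.29 at 12 h, and 11.53, 11.61 and 11.55 at 24 h. The 4 h and 24 h arrays were the highest of the 20, and the 12 h arrays reached down to the range of the controls. The rise was 0.34 ± 0.07 at 4 h (limma, adjusted p = 0.00263) and 0.31 ± 0.07 at 24 h (adjusted p = 0.00105), with a fall of 0.30 from 4 to 12 h (adjusted p = 0.00233) and a rise of 0.27 from 12 to 24 h (adjusted p = 0.0073). The mean of its 3 probe sets gave 0.12 at 24 h (adjusted p = 0.222) and 0.18 for 24 h over 12 h (adjusted p = 0.119), neither of them called.

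Uhrf1, which recruits the maintenance DNA methyltransferase to newly copied DNA, was at 10.43, 10.25 and 10.25 at 24 h against 10.70, 10.84 and 10.62 in controls. The groups did not overlap, and the fall was 0.41 ± 0.08 (adjusted p = 0.000363), with -0.50 for its second probe set. Its 12 h difference of -0.26 (adjusted p = 0.0253) was lost without control replicate 1 or 2 or AICAR 12 h replicate 1 or 3 (-0.27 to -0.20, adjusted p 0.0515 to 0.137). Clspn, the adaptor through which ATR activates Chk1 at stalled forks, had 9.71, 9.72 and 9.65 at 24 h against 9.27, 9.41 and 9.33 in controls, a rise of 0.36 ± 0.08 (adjusted p = 0.000939). Its dimmer probe set went the other way at 24 h, with -0.31, and the mean of both gave 0.02 (adjusted p = 0.931). The rise of 0.27 from 12 to 24 h (adjusted p = 0.0174) was lost without AICAR 12 h replicate 3 or AICAR 24 h replicate 1 or 2 (0.21 to 0.26, adjusted p 0.0541 to 0.0963), and the mean of both probe sets gave -0.09 (adjusted p = 0.809). Chaf1b, a subunit of the chromatin assembly factor, was called at no time (-0.19 at 24 h, 95% interval -0.44 to 0.06).

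**Figure D3:**
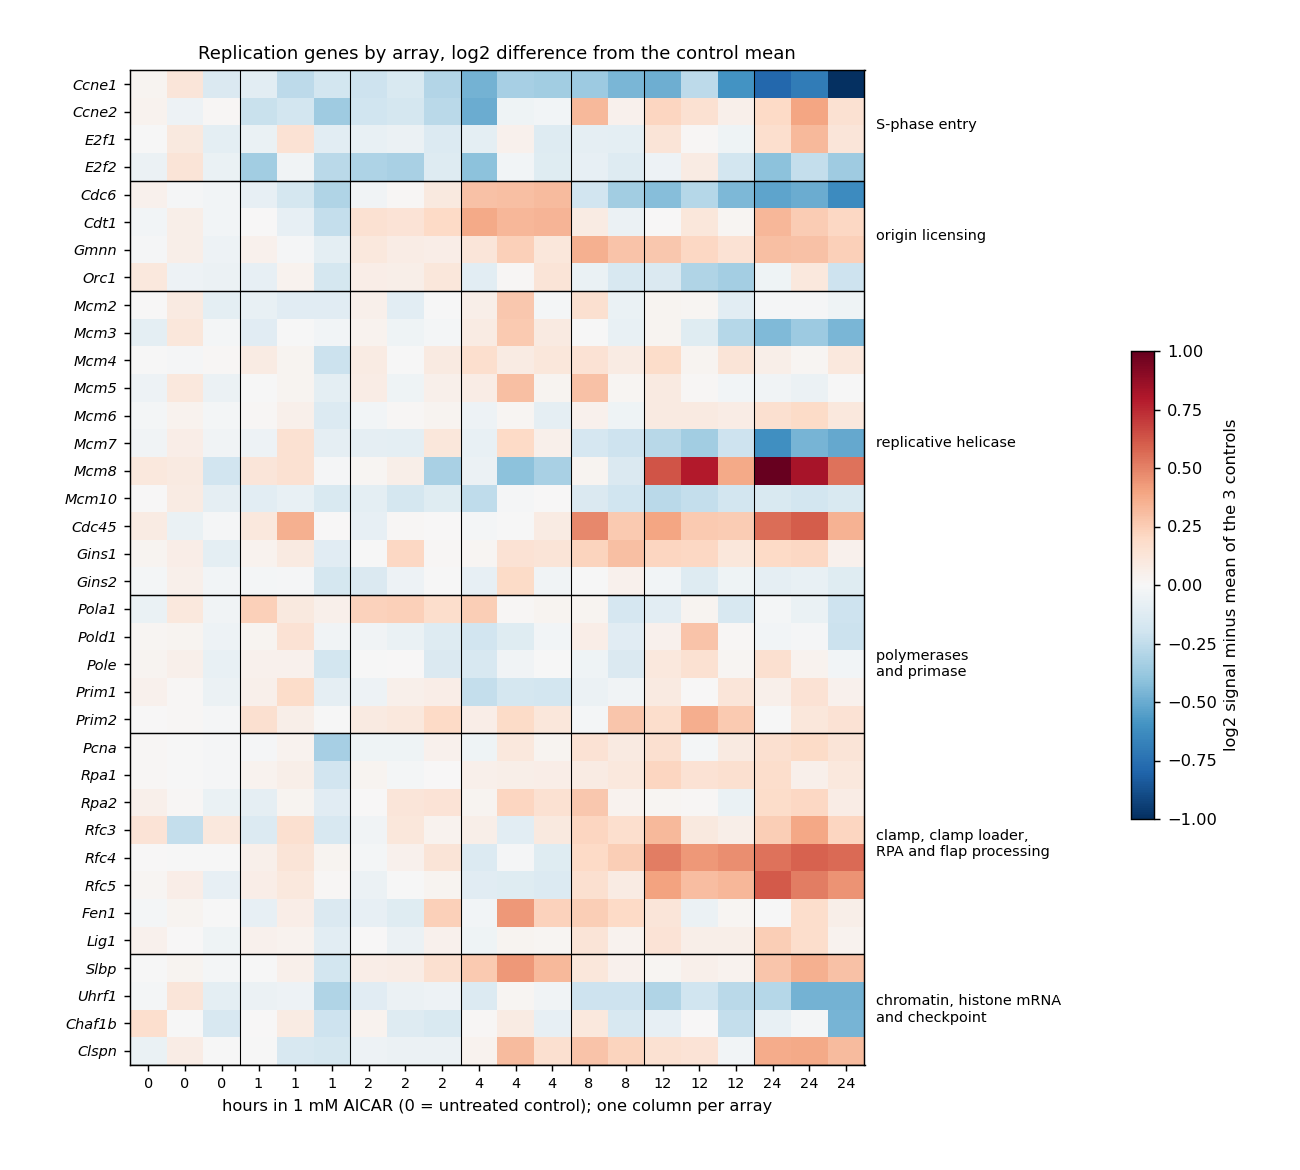
Log2 signal of each of the 36 replication genes (rows, grouped by role) on each of the 20 arrays (columns, by hours in AICAR, controls at 0), minus the mean of the 3 control arrays; red is above and blue below that mean, and differences past the ends of the scale take the end colour. Ccne1, Cdc6, Mcm7 and Uhrf1 turn blue and Mcm8, Cdc45, Rfc4 and Rfc5 turn red in the 12 and 24 h columns, while Cdc6, Cdt1 and Slbp are red at 4 h.

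The AICAR times were also compared with each other; the control arrays enter these comparisons only through the spread estimated over all 20 arrays. Between 4 and 12 h, 12 of the 36 genes were called (33.3%, 6 higher and 6 lower), against 27.6% of all genes, 18.3% higher and 9.22% lower. Cdc6, Cdt1, Slbp, Mcm7, Mcm3 and Orc1 were lower at 12 h than at 4 h. Mcm8, Rfc4, Rfc5, Ccne2, Cdc45 and Prim1 were higher. Between 12 and 24 h, 6 were called (16.7%, 3 higher and 3 lower), against 19.9% of all genes, 12.6% higher and 7.3% lower. Cdt1, Slbp and Clspn were higher and Ccne1, Mcm3 and Mcm7 were lower at 24 h than at 12 h. That count was 3 without AICAR 12 h replicate 1, AICAR 24 h replicate 1 or AICAR 24 h replicate 2.

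Other settings ended some of these calls too. With each array centred on its median, 13 calls were lost (adjusted p 0.0506 to 0.132): those of Ccne1, Cdc6 and Cdc45 at 8 h, Gmnn, Cdc45, Uhrf1 and Orc1 at 12 h, Rfc3 at 24 h, Cdc6 at 4 h, Mcm3 and Orc1 between 4 and 12 h, and Mcm3 and Cdt1 between 12 and 24 h. The mean of all probe sets also lost Mcm3 between 4 and 12 h (-0.25, adjusted p = 0.0954), and Mcm3 and Cdt1 between 12 and 24 h (-0.26 and 0.16, adjusted p = 0.0995 and 0.0612). A fit of only the groups compared, with fewer arrays to estimate the spread, lost 16 calls (adjusted p 0.055 to 0.135). These were Cdc6, Cdc45 and Rfc4 at 8 h, Mcm10, Gmnn, Uhrf1 and Orc1 at 12 h, Rfc3 at 24 h, Ccne2, Mcm3 and Orc1 between 4 and 12 h, and Ccne1, Mcm3, Mcm7, Cdt1 and Clspn between 12 and 24 h.

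**Figure D4:**
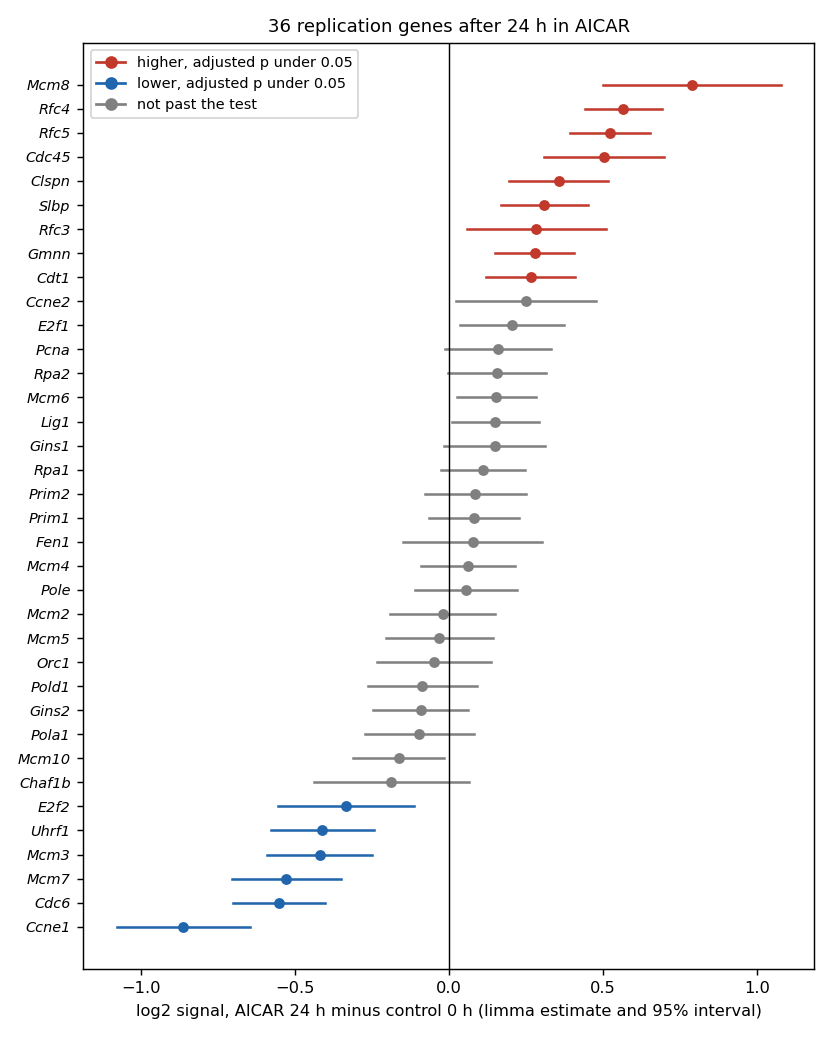
Log2 difference between AICAR at 24 h and the control at 0 h for each of the 36 replication genes (points) with its 95% interval from the limma fit (lines), sorted by size; red and blue mark genes higher and lower at an adjusted p under 0.05, and grey marks genes not past the test. Estimates run from -0.86 for Ccne1 to 0.79 for Mcm8.

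For the 21 genes not called at 24 h, the 95% intervals lay between -0.44 (the low end for Chaf1b) and 0.48 (the high end for Ccne2). Changes beyond these ends were outside the interval of every one of these genes. The intervals of single genes were narrower than this span, so smaller changes have to be read against each gene's own interval. Across the list, 20 genes had more than 1 probe set. Among genes called at 24 h there were 9 further probe sets above the filter, and 8 of them differed in the same direction as the one used; the exception belonged to Clspn.

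Related gene lists, chosen with earlier results of these data known, were read beside the replication genes. Of 35 other replication genes tested, 9 were higher and 5 lower at 24 h (40%), against 40.4% of all genes, 25.8% higher and 14.6% lower, a share near that of all genes. Cdc7, the kinase that fires origins, rose by 0.62 (limma, adjusted p = 1.27e-05) and Topbp1, which helps load Cdc45, by 0.32 (adjusted p = 0.000156). Chtf18, part of an alternative clamp loader, fell by 0.78 (adjusted p = 3.51e-06), and Orc6 by 0.34 (adjusted p = 0.000153). Of 11 replication checkpoint genes, 5 were higher and 1 lower at 24 h (54.5%), beside the same 40.4% of all genes. They included the ATR activator Etaa1 (0.87, adjusted p = 1.56e-05), Rad17, which loads the checkpoint clamp (0.43, adjusted p = 0.000255), the kinase gene Chek1 (0.42, adjusted p = 0.00185) and Tipin, of the fork protection complex (0.35, adjusted p = 0.00218), all higher.

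Among 19 genes of E2F partners, pocket proteins and S-phase kinases, 7 were higher and 4 lower at 24 h (57.9%), against 40.4% of all genes. Rbl1, the pocket protein p107 that represses E2F targets, rose by 0.87 (adjusted p = 3.79e-07), Tfdp2, an E2F partner, by 0.69 (adjusted p = 0.000861), and the Cdk inhibitor gene Cdkn1a by 0.53 (adjusted p = 0.000196). Fbxo5, which encodes the APC/C inhibitor Emi1, fell by 1.07 (adjusted p = 1.72e-05). Of 10 deoxynucleotide supply genes, 2 were higher and 5 lower at 24 h (50% lower), against 14.6% of all genes lower; this difference was not tested. Rrm2, the S-phase subunit of ribonucleotide reductase, had a mean of 10.50 ± 0.03 at 24 h against 11.45 ± 0.03 in controls (SD, n = 3 each), a fall of 0.95 (adjusted p = 2.56e-08). Dctd, a deoxycytidylate deaminase, fell by 0.90 (adjusted p = 8.28e-08), thymidine kinase Tk1 by 0.81 (adjusted p = 8.36e-07) and thymidylate kinase Dtymk by 0.77 (adjusted p = 2.85e-07). Of 10 histone mRNA processing genes, 2 were higher and 2 lower at 24 h (40%), near the 40.4% of all genes. At 4 h, 2 of the 10 were higher and 0 lower, against 5.18% of all genes higher and 6.9% lower. These were Npat and Casp8ap2, which drive histone gene transcription and processing. They rose by 0.48 and 0.47 (adjusted p = 0.000747 and 0.000554) at this time, when Slbp also rose. Lsm10 was not called at 4 h (7.65 against 8.03 in controls). Between 4 and 12 h Lsm10 rose by 1.16 (adjusted p = 3.23e-06), while Npat and Casp8ap2 fell by 0.58 and 0.22 (adjusted p = 4.21e-05 and 0.038).

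The G2/M and mitosis list had 28 genes tested. At 4 h, 6 were higher (21.4%) and 0 lower, against 5.18% of all genes higher and 6.9% lower. Among the 6 were the kinetochore motor gene Cenpe (0.41, adjusted p = 0.00546) and the proliferation marker Mki67 (0.38, adjusted p = 0.0115). Between 4 and 12 h, 1 was higher and 19 lower (67.9% lower), beside 6 of 36 replication genes lower (16.7%) and 9.22% of all genes. The mitotic kinase genes Aurka and Plk1 dropped by 0.88 and 0.65 between these times (adjusted p = 1.43e-06 and 2.63e-06). The median difference from 4 to 12 h was -0.35 for the mitotic genes, 0.02 for the replication genes and -0.02 for all genes. At 24 h, 6 mitotic genes were higher and 12 lower (64.3%), against 40.4% of all genes. The difference between the lists was not tested.

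Rfc4 had the largest F statistic of the 36. Among genes outside the list, those whose 7 group means correlated most closely with its own were Snx14 (r = 0.998), Mettl7a1 (0.998), Spag7 (0.997), Zfand4 (0.997) and Mcrip1 (0.996). These are Pearson correlations over 7 group means of arrays that share both time and treatment. They were chosen as the highest among the tested genes outside the list and are given as a description.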

How the data were processed

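Per the labels' protocols, biotin-labelled cRNA made from total RNA of 20 double-knockout fibroblast samples was hybridised to Affymetrix mouse MG-430 PM arrays. The authors' deposited values were taken as log2 probe set signals, since their maximum of 13.46 lies above the natural log and below the log2 of a 16-bit scanner maximum (11.09 and 16); background correction and normalization were not given in the sources used here. The number of arrays, 2 or 3 a group, limits the precision. Of 45141 probe sets, 104 were controls, 28898 had 1 gene symbol, 551 had several and 15692 were not listed in the annotation; symbols were updated for 28689.

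The probe set with the highest mean stood for each of 17097 genes, and 4153 genes were dropped because their highest group mean did not exceed 4.81, the 40th percentile of the table. The 12944 remaining genes were fitted in 1 model over all 20 arrays with 7 groups and no covariates (limma 3.58.1 in R 4.3.3, lmFit and eBayes, 13 residual degrees of freedom), with Benjamini-Hochberg adjustment over all genes at 0.05. The p-values in the text come from limma unless an exact permutation test is named. The procedure was tested on simulated data. Figures used Python 3.11.15 and matplotlib 3.10.9. Promoter windows came from RefSeq (GRCm38.p6).

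All 37 genes of the list were to be named, and from each other list up to 4 genes past the threshold with the largest absolute t. The members and lists were chosen with earlier results of these data known. Alternatives were other scalings, filters, probe set rules, priors, array weights, covariates, a replicate block, fits of the compared groups alone, a stricter threshold and leaving out each array. The actin covariate, and a fit without the 2 arrays of highest median, were added after seeing the data.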

Additional observations from a re-analysis of the deposited data

Results flagged for a closer look

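The signal of 12 replication genes differed between the AICAR 12 h and AICAR 4 h arrays in the limma model, a difference between times that cannot be told apart from time in culture. It was 0.33 for Ccne2, 0.87 for Mcm8, 0.29 for Cdc45, 0.27 for Prim1, 0.56 for Rfc4 and 0.47 for Rfc5, all higher at 12 h. It was -0.27 for Mcm3, -0.34 for Mcm7, -0.69 for Cdc6, -0.30 for Cdt1, -0.30 for Slbp and -0.27 for Orc1, all lower at 12 h. The calls of Ccne2, Mcm3, Cdc45 and Orc1 were lost in 4, 6, 5 and 7 of 20 alternatives. Between the AICAR 24 h and AICAR 12 h arrays the signal of 6 genes differed, with the same limit. The difference was -0.41 for Ccne1, -0.29 for Mcm3 and -0.25 for Mcm7, lower at 24 h. It was 0.22 for Cdt1, 0.27 for Slbp and 0.27 for Clspn, higher at 24 h. Each of these 6 calls was lost in some of 20 alternatives. That of Mcm7 was lost in 8, Cdt1 in 7, Mcm3 in 4, Ccne1 in 2 and Slbp in 1. That of Clspn was lost in 4 and reversed in 1.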

How the results depend on the processing

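Of 54 calls of a gene in a comparison, 25 passed in every alternative; over 1075 alternatives of these calls, 948 kept direction and threshold, 126 kept direction only and 1 reversed (Clspn, 24 h minus 12 h, -0.0897 with the mean of its probe sets). A fit of only the compared groups lost 16 calls, median centring 13 and the mean of all probe sets 10. The actin covariate lost 4, a fit without the 2 arrays of highest median 3, no filter 2 and the interquartile range as a covariate 1. With array weights, whose estimation stopped before convergence, the numbers of genes called at 1, 2, 4, 8 and 24 h were 1, 3, 20, 9 and 23, with 22 for 12 h minus 4 h, 11 for 24 h minus 12 h and 28 over all times. The 8 h count was 2 with median centring, with the actin covariate and with only the compared groups fitted, and 1 at an adjusted p of 0.01. At that threshold the 12 h count was 5 and the 24 h minus 12 h count 2, and the 24 h minus 12 h comparison gave 1 in a fit of its groups alone. Leaving out 1 array gave 0 genes at the first 2 times, 3 to 4 genes at 4 h, 0 to 2 genes at 8 h, 7 to 10 genes at 12 h, 13 to 17 genes at 24 h, 9 to 12 for 12 h minus 4 h, 3 to 7 for 24 h minus 12 h and 15 to 18 over all times. The cause of these changes was not tested. The main fit did not pair the arrays by replicate number. Same-numbered arrays of different groups correlated in their deviations with a median r of 0.325 (range -0.455 to 0.79, 39 of 57 pairs over 0.1). For different-numbered arrays the median r was -0.166 (range -0.69 to 0.66, 36 of 114 pairs over 0.1). Of 20 arrays, 12 correlated best with their own number. The p-values of the main fit leave this likeness of same-numbered arrays out. With the replicate number as a block the counts were 0, 0, 6, 6, 14 and 17 from 1 h to 24 h, 14 for 12 h minus 4 h, 8 for 24 h minus 12 h and 20 over all times, each within 1.5 times the count without it; at 24 h the block added E2f1 (adjusted p = 0.0112) and Mcm6 (adjusted p = 0.0337).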
